A study of Drosophila melanogaster with 12 samples.

Results

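A night that followed a light phase was compared with a subjective night that followed a day of darkness, at the same clock hours, in adult heads of cn bw flies, a Drosophila melanogaster strain that carries the eye colour mutations cinnabar (cn) and brown (bw). The members are 6 of the 12 arrays of the series, chosen by the hour in their titles. The night after light comprised ZT16, ZT20 and ZT24 (Zeitgeber time, hours since lights came on), collected 4, 8 and 12 hours after lights went off at the end of a normal light phase. The subjective night comprised CT16, CT20 and CT24 (circadian time, hours since lights would have come on), collected after 28, 32 and 36 hours without light. All flies had first lived through 3 days of 12 hours of light and 12 hours of darkness. Each array held RNA pooled from about 100 to 200 heads, and there was 1 array per hour and night, so each clock hour gave 1 pair. Fly age and sex are not given in the sources used here, nor is it stated whether the time points came from separate cultures, so p-values measure the spread between these arrays, which may be technical. The later array of each pair was always the one in constant darkness and was collected 24 hours after its partner. A day without light, elapsed time and any batch between the days therefore cannot be told apart.

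The fly clock is a feedback loop in which the proteins CLK and CYC switch on per and tim, and the PER and TIM proteins later switch CLK and CYC off. Light resets the loop through CRY, a blue-light receptor that triggers the breakdown of TIM. In constant darkness the loop keeps running, so a subjective night has the clock phase of a night but lacks the light phase before it. Photoreceptor cells of the compound eyes respond to light through a separate cascade of rhodopsins, a G protein, a phospholipase and ion channels.

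Markers of the eye were present in every night array: over the 6 arrays the photoreceptor channel gene trp averaged 9.13, the photoreceptor scaffold gene inaD 8.31 and the arrestin gene Arr2 10.98 (log2). The neuronal genes elav, nSyb and brp averaged 5.03, 6.83 and 5.70, the glial genes repo and alrm 4.96 and 5.85, and the muscle genes Mlc1 and Mlc2 9.79 and 11.91. Genes of tissues outside the head gave low and high values: the testis genes dj and Mst87F averaged 2.52 and 6.21, the accessory gland gene Acp36DE 2.51, the eggshell genes Cp36 and Vm26Aa 7.34 and 6.82, and the lysozyme gene LysS, a gut marker, 8.74. Levels of different probe sets are not comparable, so these values do not rank the tissues. In whole heads, fewer cells of a type and less RNA per cell cannot be told apart.

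The nights differed in one measure of RNA quality, the signal of probe sets at the 3' end of control transcripts minus that at the 5' end, which is larger in degraded RNA. It was 2.58 in ZT16, 1.60 in ZT20 and 3.32 in ZT24, against 2.08 in CT16, 1.49 in CT20 and 1.96 in CT24 (log2). The night after light averaged 2.499 ± 0.86 (SD, n = 3) and the subjective night 1.84 ± 0.31 (n = 3). ZT16 and ZT24 stood apart from the other 4 night arrays, whereas the pair at hour 20 was close. Part of the results are therefore also given at hour 20 alone or with ZT20 as the single array of the night after light. The latter sets ZT20 against the mean of CT16, CT20 and CT24, so it does not match the clock hours. Where only a mean of the 3 pairs is given, ZT16 and ZT24 enter it.

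**Figure D1:**
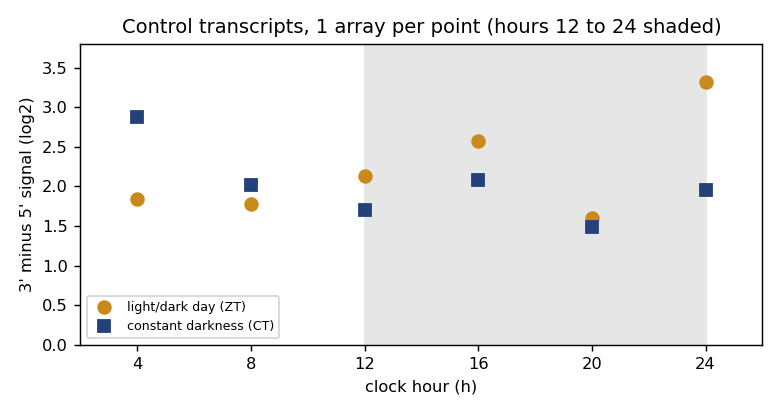
The 3' minus 5' signal of control transcripts (vertical axis, log2) is plotted against clock hour in hours, with 1 point per array and hours 12 to 24 shaded. At hours 16 and 24 the light/dark arrays (circles, 2.58 and 3.32) lie above the constant darkness arrays (squares, 2.08 and 1.96), and at hour 20 the 2 lie close together (1.60 and 1.49).

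Across 10845 genes the difference between the nights was followed as the level in the subjective night minus that in the night after light, averaged over the 3 hour pairs, on the log2 scale of the deposited values. After Benjamini-Hochberg adjustment over all probe sets, limma called 2 genes higher in the subjective night (0.0184% of genes) and 0 lower (0%). An unadjusted p under 0.05 was found for 1389 genes, or 12.8%, of which 810 (7.47%) were higher and 579 (5.34%) lower; chance alone would give 542. That number depends on the fit: it was 412 higher and 338 lower without the hour block, 336 and 236 on all 12 arrays, and 95 and 103 there with the 3' minus 5' signal as a covariate. Without the pair at hour 20, limma called 361 genes higher and 56 lower, and without the pair at hour 16 or 24 it called 0. The median gene was -0.03, and 41.6% of genes lay above 0 and 58.4% below.

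Edc3, which encodes an activator of mRNA decapping, a step in the breakdown of messenger RNA, measured 4.34 in ZT16, 4.17 in ZT20 and 4.43 in ZT24. In the subjective night it measured 5.93 in CT16, 6.04 in CT20 and 6.21 in CT24. Every array of the subjective night lay above every array of the night after light. The difference was 1.75 ± 0.09 (SE, 3 pairs), or 3.36-fold, and passed limma's test (adjusted p = 0.0169). It was 1.87 at hour 20, where RNA quality was alike, and 1.60 and 1.78 at hours 16 and 24.

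The second called gene, CG7564, has no role given here. It measured 4.13, 4.08 and 3.95 at ZT16, ZT20 and ZT24, and 5.83, 5.72 and 5.53 at CT16, CT20 and CT24. The groups were far apart relative to the spread within each. The difference was 1.64 ± 0.08 (SE, 3 pairs), or 3.12-fold (limma, adjusted p = 0.0169), with 1.701, 1.645 and 1.579 at hours 16, 20 and 24. CG7564 and Edc3 are direct neighbours on chromosome arm 3L in the RefSeq table. Their outer neighbours there did not share the difference: U4-U6-60K, which encodes a protein of the splicing machinery, measured 0.10 ± 0.09 (SE), and Nedd4, which encodes a ubiquitin ligase, -0.11 ± 0.11. Both calls were lost in limma when the pair at hour 16 or the pair at hour 24 was left out (adjusted p = 0.6038 and 0.1608 for each gene), with differences between 1.61 and 1.82. With ZT20 as the only array of the night after light, where the spread comes from the 3 CT arrays alone and ZT20 is assumed to vary like them, the differences were 1.89 for Edc3 and 1.62 for CG7564 (adjusted p = 0.2005 for each).

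Just short of the threshold stood 3 further genes, all higher in the subjective night. Nrg, which encodes the cell adhesion protein Neuroglian, measured 6.11, 6.005 and 5.80 at ZT16, ZT20 and ZT24 and 7.19, 7.13 and 7.06 at the matching CT hours. Its difference was 1.15 ± 0.09 (SE; limma, adjusted p = 0.0544), and it passed without the hour block (adjusted p = 0.04792). On all 12 arrays Nrg did not pass (limma, adjusted p = 0.7708). With the 3' minus 5' signal as a covariate there, its difference was 0.57 (limma, adjusted p = 0.9998). CG9003 measured 7.05, 7.20 and 6.56 after light and 8.17, 8.23 and 7.66 in the subjective night, a difference of 1.08 ± 0.08 (limma, adjusted p = 0.0544). Ythdf, which encodes a reader of the mRNA methylation mark m6A, measured 4.91, 4.99 and 4.64 after light and 6.35, 6.17 and 5.78 in the subjective night. Its difference was 1.25 ± 0.10 (limma, adjusted p = 0.0556), and it passed when the variance was allowed to follow the level (adjusted p = 0.04168). Ythdf did not pass without the hour block or on all 12 arrays (limma, adjusted p = 0.3734 and 0.2054). With the 3' minus 5' covariate its difference was 1.15 (limma, adjusted p = 0.8564). None of the 3 genes overlapped between the nights; 4.06% of all genes lay wholly above, and 9.09% wholly below, in the subjective night.

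**Figure D2:**
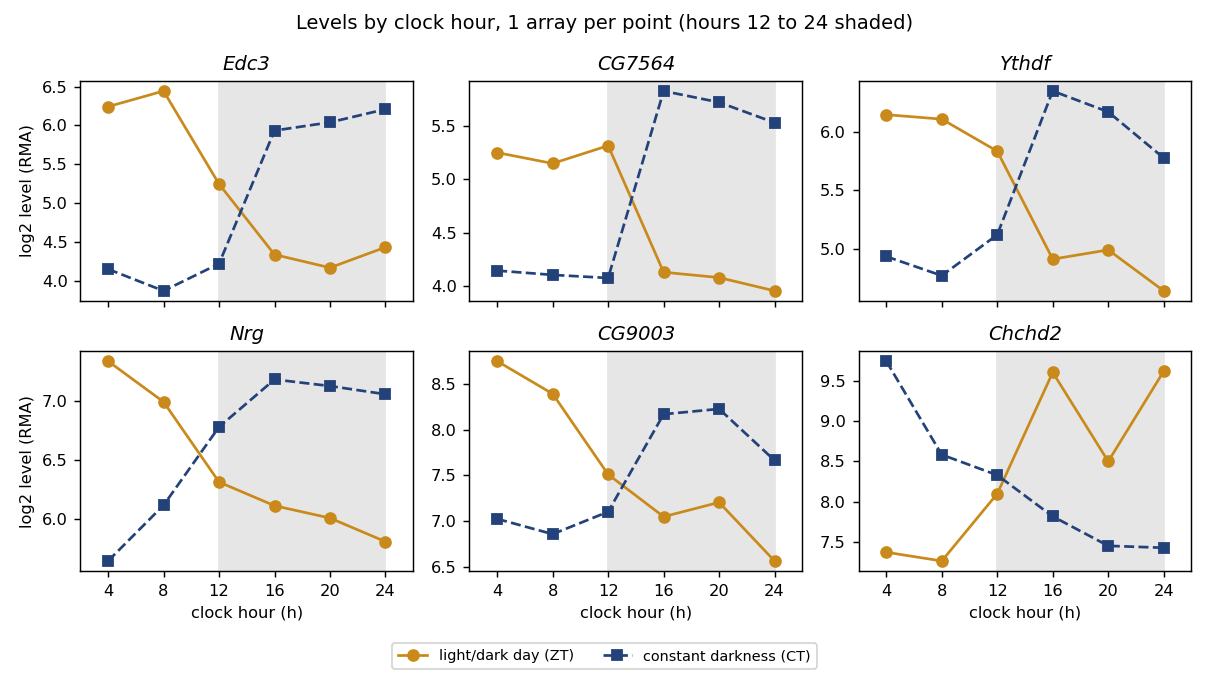
Log2 levels of 6 genes (vertical axes) are plotted against clock hour in hours, with 1 array per point, circles for the light/dark day, squares for constant darkness and hours 12 to 24 shaded. At hours 16, 20 and 24 Edc3, CG7564, Ythdf, Nrg and CG9003 are higher in constant darkness and Chchd2 lower, and at hours 4 and 8 each gene lies the other way round.

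Genes that kept 1 sign in all 3 pairs were ranked by their smallest pair difference, among genes with a mean night level of at least 5. Over all genes, 14% kept a positive and 25.2% a negative sign. The 12 leading genes on the higher side were Edc3, Ythdf, CG3061, Nrg, CG9003, BNIP3, IP3K2, jus, Ae2, CASK, trx and CG6191. In all 12 the nights did not overlap, against 4.06% of all genes wholly above. The ranking by pair differences favours such genes, so this adds no separate result. BNIP3, which encodes a mitochondrial protein that marks mitochondria for removal, measured 5.72, 6.77 and 5.999 after light and 6.99, 7.70 and 7.42 in the subjective night, a difference of 1.21 ± 0.12 (SE; limma, adjusted p = 0.1396). In each night its level was highest at hour 20. CG3061 had the largest mean difference of the 12, 1.79 ± 0.26, but its pairs ranged from 1.09 at hour 20 to 2.52 at hour 24.

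IP3K2, which encodes a kinase of the second messenger inositol trisphosphate, differed by 1.12 ± 0.11 (SE; limma, adjusted p = 0.133). A second probe set of IP3K2 gave -0.06 ± 0.08, so its probe sets disagree. The scaffold gene CASK measured 6.39, 6.05 and 6.23 after light and 7.33, 7.45 and 6.97 in the subjective night, a difference of 1.03 ± 0.14 (limma, adjusted p = 0.3673). Other probe sets of CASK gave 0.93 ± 0.15 and 0.29 ± 0.17. The anion exchanger gene Ae2 was nearly level in the subjective night, at 7.39, 7.37 and 7.38, against 6.54, 6.18 and 6.64 after light. For jus, in which mutant flies are prone to seizures, the difference was 1.07 ± 0.13, and 0.67 ± 0.12 at a second probe set. The chromatin gene trx, which encodes a histone methyltransferase, differed by 0.86 ± 0.13, and CG6191 by 0.67 ± 0.08. In CASK, jus, Ae2, trx and CG6191 the pair at hour 20 gave the largest of the 3 differences.

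On the lower side the leading gene was Chchd2, which encodes a protein of the mitochondrial intermembrane space. It measured 9.60, 8.50 and 9.62 at ZT16, ZT20 and ZT24 and 7.82, 7.45 and 7.43 at CT16, CT20 and CT24. The nights did not overlap, and the difference was -1.67 ± 0.22 (SE, 3 pairs), or 3.19-fold lower, without passing (limma, adjusted p = 0.3673). It was -1.05 at hour 20, against -1.79 and -2.19 at hours 16 and 24, the hours with the unequal 3' minus 5' signal. With the 3' minus 5' signal as a covariate over all 12 arrays the value was -0.89.

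The other 11 genes on the lower side were swm, CG5191, SF2, CtBP, Nckx30C, tn, Rbfox1, CG13722, Mf, Syp and CG9970. Among these, swm, SF2, Rbfox1 and Syp encode RNA-binding proteins. The value of swm was steady over the pairs, at -0.48, -0.52 and -0.57 for hours 16, 20 and 24 (mean -0.52 ± 0.08, SE; limma, adjusted p = 0.3673), and CG9970 was likewise steady, at -0.35, -0.40 and -0.32. Rbfox1, a splicing regulator, measured 8.37, 6.97 and 8.83 after light and 7.50, 6.61 and 6.72 in the subjective night. Its pair differences were -0.87, -0.36 and -2.11, and its 2 nights overlapped. The muscle genes tn and Mf, whose products act in the sarcomere, gave -1.16 ± 0.25 and -0.78 ± 0.17, with -0.37 and -0.33 at hour 20. CtBP, a transcriptional corepressor gene, gave -0.76 ± 0.13, and the exchanger gene Nckx30C -0.75 ± 0.21, with -0.25 ± 0.12 at a second probe set. In 10 of the 12 lower genes, all but swm and CG9970, hour 20 gave the smallest of the 3 differences in size.

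**Figure D3:**
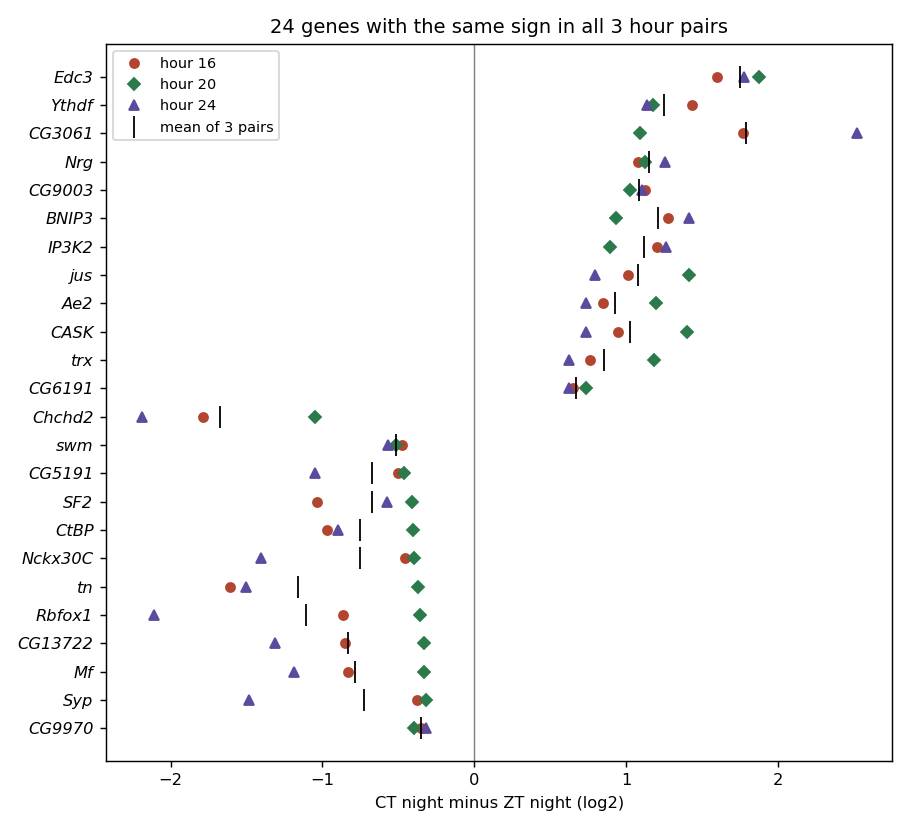
For 24 genes (rows), the horizontal axis gives the subjective night minus the night after light (log2) at hours 16 (circles), 20 (diamonds) and 24 (triangles), with a bar at the mean of the 3 pairs. Chchd2 runs from -1.05 at hour 20 to -2.19 at hour 24, whereas swm and CG9970 stay within a narrow range.

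None of the 8 core clock genes passed limma's test for a difference between the nights, and 1 of 8 lay above 0, against 41.6% of all genes. That gene was cry, the blue-light receptor. It measured 6.74, 7.31 and 6.82 at ZT16, ZT20 and ZT24 and 7.66, 7.77 and 7.91 at CT16, CT20 and CT24. The nights did not overlap. The difference was 0.82 ± 0.14 (SE, 3 pairs), or 1.77-fold (limma, unadjusted p = 0.001463, adjusted p = 0.3673). It was 0.46 at hour 20 and 0.92 and 1.09 at hours 16 and 24, and 0.32 with the 3' minus 5' signal as a covariate over 12 arrays.

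The repressor gene per measured 6.12, 5.29 and 5.32 after light and 5.45, 5.19 and 5.12 in the subjective night. The difference of -0.32 ± 0.13 (SE; limma, adjusted p = 0.3848) came mainly from hour 16, where it was -0.66, against -0.10 and -0.19 later. Its partner gene tim measured 6.34, 6.28 and 5.57 after light and 6.37, 5.88 and 5.64 in the subjective night, with a difference of -0.10 ± 0.12. A second probe set of tim gave 0.13 ± 0.13. For vri, which encodes a repressor of Clk, the levels were 6.79, 5.80 and 5.68 after light and 6.64, 5.67 and 5.52 in the subjective night. All 3 pairs of vri were slightly lower, by -0.14, -0.13 and -0.16, and the mean of -0.14 ± 0.08 did not pass (limma, adjusted p = 0.4558). The activator gene Pdp1 gave -0.09 ± 0.20, Clk -0.02 ± 0.12, its partner cyc 0.00 ± 0.08 and the repressor gene cwo -0.15 ± 0.09. A second probe set of cwo gave -0.81 ± 0.25. The error of 0.08 to 0.20 on these genes sets the size of difference that 3 pairs could show.

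Through the hours of the night, 4 of the 8 core clock genes were lower at hour 24 than at hour 16 with an unadjusted p under 0.05, against 6.12% of all genes in that direction. The mean difference from hour 16 to hour 24 over both nights was -1.12 ± 0.22 (SE) for vri, -0.75 ± 0.15 for tim, -0.56 ± 0.20 for per and -0.36 ± 0.11 for cwo. None passed (limma, adjusted p = 0.454 for each). For vri it was -1.11 in the night after light and -1.12 in the subjective night, for tim -0.78 and -0.73, and for cwo -0.36 in each. For per it was -0.80 and -0.33, a difference in course of 0.47 ± 0.39.

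**Figure D4:**
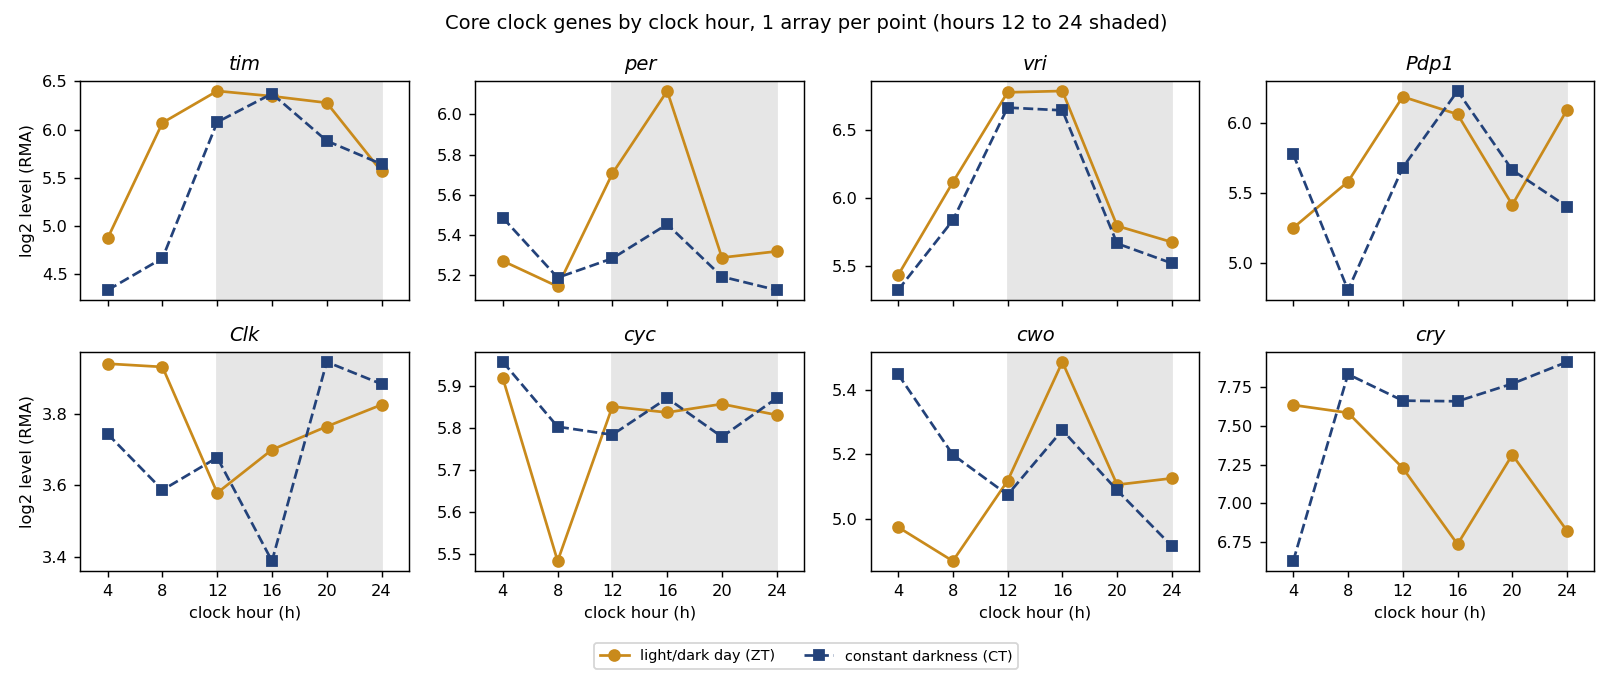
Log2 levels of the 8 core clock genes (vertical axes) are plotted against clock hour in hours, with 1 array per point, circles for the light/dark day, squares for constant darkness and hours 12 to 24 shaded. At hours 16, 20 and 24 vri follows nearly the same line in both nights, tim is 0.39 lower in the subjective night at hour 20, and cry stays between 7.66 and 7.91 in the subjective night, above its 3 values after light.

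Over all genes, limma called 0 genes (0%) for a common course through the night, and 1156 genes, or 10.7%, had an unadjusted p under 0.05. Among the 5 genes with the smallest p at a mean level of at least 5 were 2 of known metabolic or neuronal role. Glys, which encodes glycogen synthase, measured 6.53, 6.86 and 7.12 after light and 6.47, 6.86 and 7.08 in the subjective night. Both nights gave nearly the same series, higher at each later hour, with a mean difference from hour 16 to 24 of 0.60 ± 0.09 (SE; limma, adjusted p = 0.454). Cdk5alpha, which encodes the activating partner of the neuronal kinase Cdk5, measured 5.82, 6.27 and 6.45 and then 5.93, 6.37 and 6.64, a mean of 0.67 ± 0.10. The others were CG2233 with 1.06 ± 0.17, CG5973 with 0.75 ± 0.10 and Vajk3 with -0.84 ± 0.12.

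For a difference of course between the nights, limma called 0 genes (0%), and 220 genes, or 2.03%, had an unadjusted p under 0.05, in 1.32% with a more positive slope in the subjective night. The smallest p belonged to CG32687, CG10527, CG7296, CG3740 and CG3257. CG7296 measured 10.87, 9.87 and 8.62 at ZT16, ZT20 and ZT24 and 10.23, 9.71 and 9.47 at CT16, CT20 and CT24. CG10527 measured 9.64, 8.46 and 7.51 after light and 9.08, 8.74 and 8.56 in the subjective night. In all 5 genes the level was lower at each later hour after light, by 1.41 to 2.25 log2 units from hour 16 to 24, and the 2 end points are the arrays with the large 3' minus 5' signal. Their adjusted p was 0.9999 in limma. Without ZT16, which leaves 1 residual degree of freedom, limma called 791 genes with a more positive and 539 with a more negative slope in the subjective night, without ZT24 213 and 261, and without ZT20 0 and 1.

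Whether the difference was particular to the night hours was tested on all 12 arrays by setting it against the same difference at hours 4, 8 and 12, when the first day was lit and the second dark. Limma called 3 genes (0.0277%), all with a more positive difference at night, and 436 genes, or 4.02%, had an unadjusted p under 0.05, in 2.29% with a more positive and in 1.73% with a more negative difference at night. CG7564 was lower in constant darkness by day, at 5.25, 5.15 and 5.32 in ZT4, ZT8 and ZT12 and 4.14, 4.10 and 4.07 in CT4, CT8 and CT12. Its night difference exceeded its day difference by 2.77 ± 0.13 (SE, n = 12; limma, adjusted p = 0.0008676). Edc3 measured 6.24, 6.44 and 5.24 in the lit hours and 4.15, 3.87 and 4.22 in the subjective day, so its high and low days were exchanged between day and night. The excess was 3.64 ± 0.36 (limma, adjusted p = 0.0448). Ythdf measured 6.14, 6.11 and 5.83 and then 4.93, 4.77 and 5.12, with an excess of 2.34 ± 0.20 (limma, adjusted p = 0.0289).

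In the order of collection, these 3 genes were thus high in the 3 lit arrays, low in the 6 arrays from ZT16 to CT12 and high again in the 3 arrays from CT16 to CT24. The repressor gene cic, which encodes the protein Capicua, followed them with an excess of 1.47 ± 0.16 (SE; limma, adjusted p = 0.0768) and a night difference of 0.68 ± 0.11. A second probe set of cic gave an excess of only 0.20 ± 0.13 and a night difference of 0.18 ± 0.08. For CASK the excess was 2.13 ± 0.26 and for jus 2.03 ± 0.25 (limma, adjusted p = 0.1136 for each). Other probe sets gave 0.69 and 1.515 for CASK and 1.08 for jus. Without hours 4 and 8, an alternative chosen after seeing the data, limma called 0 genes, with an excess of 2.88 for CG7564 and 2.77 for Edc3 (adjusted p = 0.06005 for each) and 1.96 for Ythdf (adjusted p = 0.2992). With 1 hour left out it called 1 gene, except that it called 7 without hour 12.

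The gene lists, described by their counts and medians, contained no further called gene apart from Edc3 in the list of mRNA decay and translation. In that list 14 of 27 genes lay above 0, with a median of 0.00 against -0.03 for all genes. The cap-binding gene eIF4E1 gave 0.59 ± 0.17 (SE), with 0.08 at hour 20.

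Over the 3 pairs, genes of sugar use had the highest median of the 34 lists, though at hour 20 the glia and neuron markers (0.19 and 0.12), and with the 3' minus 5' covariate the neuron markers (0.25), exceeded the 0.11 and 0.18 of the sugar list. Of 21 genes for glycolysis and sugar handling, 17 (81%) lay above 0, against 41.6% of all genes, and 14 had an unadjusted p under 0.05 on the higher side, against 7.47%. The median was 0.40. Tps1, which makes the blood sugar trehalose, measured 7.95, 9.46 and 8.54 after light and 9.75, 9.76 and 9.90 in the subjective night, a difference of 1.15 ± 0.28 (SE; limma, adjusted p = 0.3673). Glyp, the glycogen phosphorylase gene, gave 0.71 ± 0.16, the aldolase gene Ald1 0.53 ± 0.13 and the phosphofructokinase gene Pfk 0.53 ± 0.13. At hour 20 Glyp gave 0.255, Ald1 0.32 and Pfk 0.18. The list's median was 0.62 at hour 16, 0.11 at hour 20 and 0.53 at hour 24, smallest at the hour when the 3' minus 5' signal was alike, and 16 of 21 genes were above 0 at that hour. With that signal as a covariate over 12 arrays the median was 0.18, with 1 gene at an unadjusted p under 0.05 on the higher side. After a further quantile normalization the median was 0.22. The list had a mean level of 7.84, and among all genes those with levels from 6.03 upwards had a median of 0.05.

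Respiratory chain and ATP synthase genes were also mostly above 0, with 39 of 62 and a median of 0.20, and 25 had an unadjusted p under 0.05, all on the higher side, against 7.47% of all genes. With the 3' minus 5' covariate 0 did on the higher side and 2 on the lower. SdhC, a subunit gene of succinate dehydrogenase, gave 0.77 ± 0.17 (SE) and the cytochrome oxidase gene COX5A 0.61 ± 0.15, with 0.29 and 0.19 at hour 20. The list's median was 0.06 at hour 20 and 0.00 after a further quantile normalization. Of 31 cytosolic ribosomal protein genes, 24 lay above 0 with a median of 0.22, and after quantile normalization that median was -0.02, so its direction depends on the scaling. RpS7 measured 9.70, 10.98 and 10.18 after light and 10.87, 11.16 and 11.03 in the subjective night. RpS18 gave 0.59 ± 0.15, with 0.17 at hour 20. For 64 mitochondrial ribosomal protein genes the median was 0.10 overall and -0.06 at hour 20.

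Phototransduction genes also lay mostly above 0. Of 21 genes, 16 did, against 41.6% of all genes, with values from -0.45 to 1.51. The median was 0.18, and it was 0.10 at hour 20, where 16 were again above 0. An unadjusted p under 0.05 was found for 8 on the higher side and 2 on the lower, against 7.47% and 5.34% of all genes. With the 3' minus 5' covariate the median was 0.03, with 1 such gene on the higher side, and after a further quantile normalization it was 0.07. Ggamma30A, a subunit gene of the visual G protein, measured 6.26, 7.99 and 6.64 after light and 7.76, 8.53 and 8.36 in the subjective night. Its difference was 1.25 ± 0.23 (SE; limma, adjusted p = 0.3673), with 0.53 at hour 20. The rhodopsin phosphatase gene rdgC gave 0.96 ± 0.15 with 0.94 at hour 20, and its nights did not overlap. The scaffold gene inaD gave 0.67 ± 0.14 with 0.32 at hour 20. The tan gene (t), whose enzyme recycles the photoreceptor transmitter histamine, measured 5.77, 7.95 and 6.66 after light and 7.70, 8.12 and 8.12 in the subjective night, a difference of 1.19 ± 0.33 with 0.18 at hour 20.

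**Figure D5:**
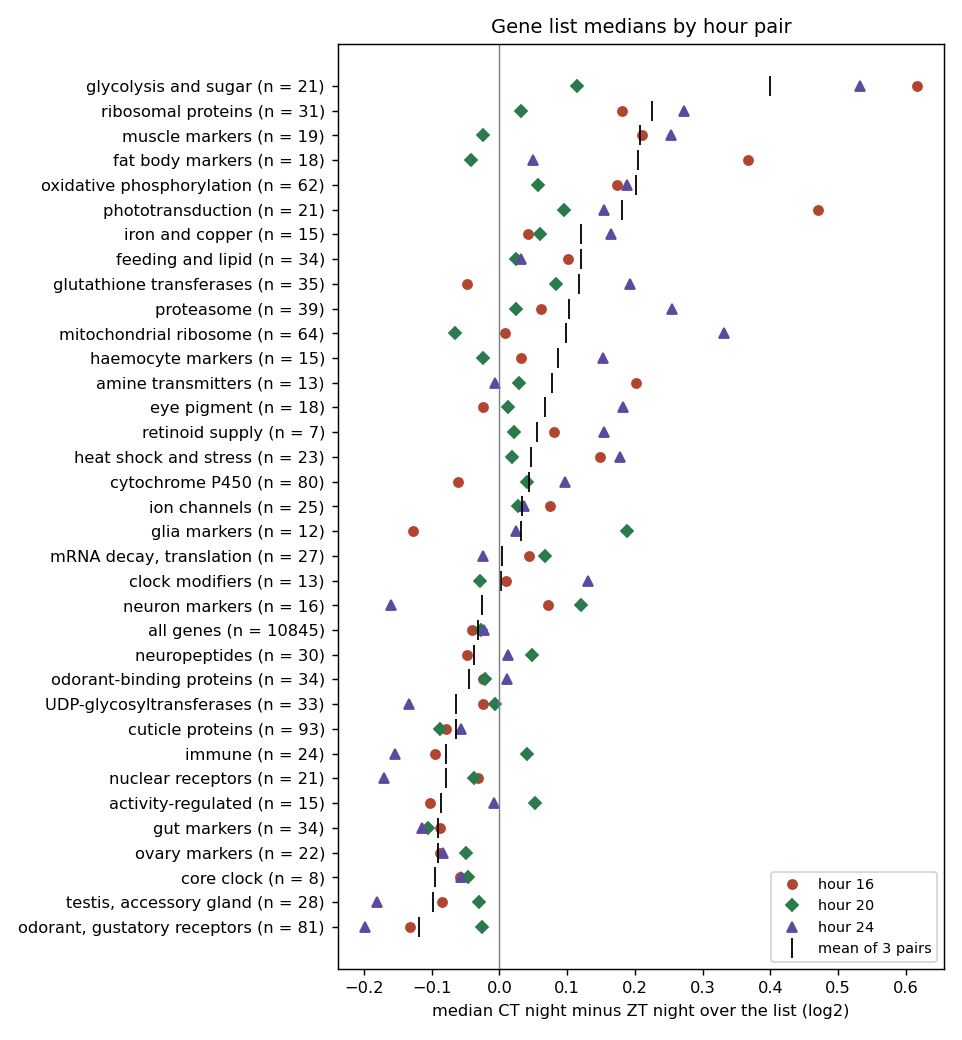
For 34 gene lists and all genes (rows, with the number of genes), the horizontal axis gives the median of the subjective night minus the night after light (log2) at hour 16 (circles), hour 20 (diamonds) and hour 24 (triangles) and over the 3 pairs (bars). The sugar list runs from 0.11 at hour 20 to 0.62 at hour 16, whereas the fat body and muscle lists lie slightly below 0 at hour 20.

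Stress, immune and peptide genes gave mixed lists with a few separate genes. Catalase (Cat) gave 0.78 ± 0.15 (SE) and the co-chaperone gene Droj2 0.71 ± 0.18, in a list of heat shock and stress genes whose median was 0.05 with 15 of 23 above 0. At hour 20 Cat gave 0.35 and Droj2 0.195. Of 24 immune genes, 9 lay above 0. Drsl5, a relative of the antifungal peptide gene Drosomycin, measured 5.96, 5.85 and 6.09 after light and 6.57, 7.10 and 7.23 in the subjective night. Its difference was 1.003 ± 0.14 (limma, adjusted p = 0.3673), it was 1.25 at hour 20, and by day the difference was 0.72. The NF-kB gene Rel gave 0.39, 0.41 and 0.41 at the 3 hours. Among 30 neuropeptide and receptor genes, 12 lay above 0. The ion transport peptide gene ITP measured 4.57, 4.48 and 4.61 after light and 4.86, 5.05 and 5.16 in the subjective night. Its difference was 0.47 ± 0.10 (limma, adjusted p = 0.3673). The peptide gene sNPF gave 0.61 ± 0.15, with 0.21 at hour 20.

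Detoxification and metabolic families contained genes on both sides. Of 80 cytochrome P450 genes, 50 lay above 0 with a median of 0.04. Cyp18a1, whose enzyme inactivates the hormone ecdysone, measured 5.21, 4.67 and 5.59 after light and 4.54, 4.27 and 4.48 in the subjective night, a difference of -0.73 ± 0.15 (SE; limma, adjusted p = 0.3673). Cyp6g1, known for insecticide resistance, gave 0.88 ± 0.22 with 0.23 at hour 20. The median of 35 glutathione S-transferase genes was 0.12, and GstD1 gave 0.57 ± 0.11, with 0.31 at hour 20. Of 33 UDP-glycosyltransferase genes, 13 lay above 0, and Ugt49C1 gave 0.51 ± 0.12. Among 34 feeding and lipid genes, 24 lay above 0. Pepck1, a gluconeogenic enzyme gene, gave 0.44, 0.42 and 0.34 at the 3 hours. The fatty acid synthesis gene ACC gave 0.66 ± 0.15, with 0.29 at hour 20. Of 15 iron and copper genes, 9 lay above 0, with 0.67 ± 0.21 for the ferritin gene Fer2LCH, where hour 20 gave 0.06, and -0.40 ± 0.10 for the metallothionein gene MtnB.

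The proteasome list was split, with 22 of 39 above 0 and a median of 0.10. The median turned to -0.16 with the 3' minus 5' covariate and to -0.11 with ZT20 alone, which does not match the clock hours. At the hour 20 pair the median was 0.02, and 22 of 39 were above 0. Rpn1 gave 0.48 ± 0.08 (SE) and Rpn6, another subunit gene of the regulatory particle, -0.34 ± 0.10, each without overlap between the nights. Of 15 activity-regulated genes, 7 lay above 0, and kay, the fly Fos gene, gave -0.48 ± 0.10. Retinoid supply had 6 of 7 genes above 0 with a median of 0.06, and eye pigments 14 of 18 with a median of 0.07. Amine transmitters had 8 of 13 above 0 (median 0.08), clock kinases and modifiers 7 of 13 (0.00), ion channels 14 of 25 (0.03), odorant-binding proteins 14 of 34 (-0.04) and nuclear receptors 7 of 21 (-0.08). With the 3' minus 5' signal as a covariate over 12 arrays, the medians of 12 of the 34 lists turned from above to below 0, among them the proteasome, mitochondrial ribosome, muscle and fat body lists, and 5 turned from below to above, among them the neuron and neuropeptide lists.

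Chemoreceptor and cuticle families lay mostly below 0. Of 81 odorant and gustatory receptor genes, 9 lay above 0 with a median of -0.12, which was -0.03 at hour 20. An unadjusted p under 0.05 on the lower side was found for 7, against 5.34% of all genes. With the 3' minus 5' covariate the median was -0.008, with 1 such gene, and after a further quantile normalization it was -0.065. Or88a measured 3.86, 3.62 and 3.74 after light and 3.42, 3.26 and 3.18 in the subjective night, a difference of -0.45 ± 0.09 (SE). By level, genes with mean levels up to 3.78 had a median of -0.06, those from 3.78 to 4.94 of -0.04 and those from 6.03 upwards of 0.05. The receptor genes had a mean level of 3.89, and their median lay further below 0. A part of the level in their difference was not tested. Of 93 cuticle protein genes, 19 lay above 0 with a median of -0.06. Cpr97Ea gave 0.45 ± 0.09 and Cpr49Ae -0.42 ± 0.09.

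The ranges of summed marker levels overlapped between the nights in 8 of 9 marker lists, and those of the gut list did not; these sums were not tested. The summed linear level of 18 fat body markers was 19200 to 32837 after light and 29895 to 34385 in the subjective night, and that of 19 muscle markers 7267 to 12728 and 11269 to 13014. For 21 phototransduction genes, which also mark photoreceptors, the sums were 6514 to 10839 and 10738 to 12429. The 34 gut markers summed to 2651 to 2795 and 2395 to 2624, and 28 testis and accessory gland markers to 840 to 895 and 778 to 852. The 22 ovary markers summed to 1286 to 1451 and 1223 to 1348, the 15 haemocyte markers to 655 to 716 and 707 to 777, the 16 neuron markers to 1028 to 1152 and 1065 to 1234, and the 12 glia markers to 1558 to 2161 and 2078 to 2543. At hour 20 the fat body median was -0.04 and the muscle median -0.02, against 0.20 and 0.21 over the 3 pairs. The yolk protein gene Yp1 gave 0.85, -0.02 and 0.59 at hours 16, 20 and 24, while the muscle gene Zasp66 gave 1.07, 0.56 and 0.60. The fat body gene Fbp2 gave -0.32 ± 0.09 (SE). Of 16 neuron markers, 7 lay above 0 and 9 below, with a median of -0.02. The synaptic vesicle gene nSyb gave 0.41 ± 0.10 and the acetylcholine synthesis gene ChAT 0.40 ± 0.14, while the means of elav were 5.13 after light and 4.92 in the subjective night, of Syn 4.28 and 4.14, and of brp 5.71 and 5.68. Their part in the differences was not tested.

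Across all 10845 genes, the night difference was set against the slope of each gene on the 3' minus 5' signal in the 6 day arrays, which the night comparison did not use. The correlation across genes was -0.749 for the mean difference, -0.566 for hour 16, -0.262 for hour 20 and -0.748 for hour 24. Pair differences at hours 16 and 24 correlated at 0.566, against 0.144 for hours 16 and 20 and 0.224 for hours 20 and 24. Genes share arrays and are not independent replicates, so these values describe the arrays and carry no p. A difference of at least 1 was seen in 126 genes at hour 16, 61 at hour 20 and 182 at hour 24, and of -1 or lower in 8, 1 and 65. For the mean of the 3 pairs, 0.323% of genes were at 1 or more and 0.0461% at -1 or less, Chchd2 among the latter.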

How the data were processed

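RNA from fly heads was measured on 12 Affymetrix arrays. The deposited values are log2 levels per probe set that the authors made with RMA, per the submitters' processing notes; the log base was inferred from their range of 1.72 to 13.52, and ratios of RMA values understate changes of weak genes. Array medians lay between 4.81 and 4.88. Of 14010 probe sets, 44 controls were set aside and 13966 tested; 12443 had 1 gene, 327 several and 1196 none. The probe set with the highest mean represented each of 10845 genes, named through the platform annotation and RefSeq (12394 symbols found). No source used here names the genome build of the array, so coordinates are left out.

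Tests used limma 3.58.1 in R 4.3.3 with p-values adjusted by Benjamini-Hochberg over the tested probe sets and a threshold of 0.05, checked on simulated data. The night difference was fitted on 6 arrays with clock hour as a block, leaving 2 residual degrees of freedom. The design pairs arrays by clock hour: deviations of same-hour arrays from their group means correlated across genes at 0.514, 0.452 and 0.265, and those of other pairs at -0.43 to 0.114. An exact sign-flip test of 3 pairs cannot go below p = 0.25, so single-gene exact tests were not used. Other fits compared night with day on 12 arrays and the course of the night on 6. Arrays give no read depth; their number limits the precision, and the median standard error of the night difference was 0.096.

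Members, gene lists and tests were chosen with earlier results of these data known. Named were all core clock genes, called genes, the 12 genes per direction with the largest smallest pair difference, members of each of 34 lists among the 4 with the smallest p, and the 5 genes with the smallest p in each other test. Alternatives covered the block, normalization, low levels, RNA quality and left-out arrays. No column of sample values was left unused.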

Additional observations from a re-analysis of the deposited data

Results flagged for a closer look

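The difference between the dark day and the light/dark day had another size at night than by day in 3 genes by the test of that difference over 12 arrays (limma, adjusted p at most 0.0448): it was more positive at night by 2.77 in CG7564, 3.64 in Edc3 and 2.34 in Ythdf on the log2 scale. All 3 night pairs of each gene were higher in constant darkness and all 3 day pairs lower. With the 3' minus 5' signal as a covariate only CG7564 passed (limma, adjusted p = 0.005067, against 0.158 for Edc3 and 0.1254 for Ythdf).

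Of 33 genes examined for it, 9 more had all night pairs on one side and all day pairs on the other, and the test of that difference did not pass for any of them (limma, adjusted p from 0.1136 for CASK and jus to 0.7362 for CtBP). Higher at night and lower by day in constant darkness were CG9003, with a night minus day difference of 2.31, CASK with 2.13, Ae2 with 2.05, jus with 2.03, IP3K2 with 1.82 and CG6191 with 1.48. A second probe set of IP3K2 gave 0.07, without opposite pairs. Other probe sets of CASK gave 0.69 and 1.515, and a second one of jus gave 1.08. Lower at night and higher by day were Chchd2 with -2.98, CG5191 with -1.57 and CtBP with -1.21. With the 3' minus 5' signal as a covariate Chchd2 gave -1.87. These 9 genes had all been ranked for keeping 1 sign in the 3 night pairs, so that part of the pattern was fixed by their choice. Among all 10845 genes, 313 (2.89%) had such opposite pairs, 130 of them higher at night and 183 lower at night. That share is not comparable with the number among the genes examined.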

How the results depend on the processing

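With 3 pairs and 1 array per hour, the number of arrays is the main limit. The 2 genes called higher at night became 3 with no replicate block in place of the paired fit, 1 on all 12 arrays, 1 on all 12 arrays with the 3' minus 5' signal as a covariate (CG7564 in both), 1 at levels of at least 5, and 0 with 16 added on the linear scale or with ZT20 alone against 3 CT nights. Leaving out an hour pair, which leaves 1 residual degree of freedom, gave 0 to 361 genes higher and 0 to 56 lower, the larger numbers without hour 20. The gene added without the block was Nrg; the night difference called 0 genes lower either way, and the other tests were not refitted without the hour. The 3 genes called in the night against day test became 1 with the covariate, 0 at levels of at least 5, 0 without hours 4 and 8, and 1 to 7 with an hour left out, the 7 without hour 12. For the difference in course, leaving out an array, which leaves 1 residual degree of freedom, gave 0 to 791 genes higher and 0 to 539 lower, with 791 and 539 without ZT16, 213 and 261 without ZT24 and 1 lower without ZT20. The night difference of some uncalled genes turned sign. With the covariate over 12 arrays Pdp1 turned to 0.406, cwo to 0.020 and GstD1 to -0.068, and after quantile normalization Clk turned to 0.021. With ZT20 alone vri turned to 0.148, Pdp1 to 0.351 and GstD1 to -0.061. That setting does not match the clock hours. At the hour 20 pair vri gave -0.129, Pdp1 0.249 and GstD1 0.307. With an hour pair left out, tim ran from -0.184 to 0.051, Pdp1 from -0.264 to 0.208, Clk from -0.127 to 0.120 and cyc from -0.022 to 0.037. The cause of these shifts was not tested. The alternatives with hour 20 alone, without hours 4 and 8, and the list medians with ZT20 alone or the covariate were chosen after seeing the data.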
